A study of Arabidopsis thaliana with 30 samples.

Results

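The 4 genes described here encode enzymes that make chlorophyll: GSA1, CHLM, PORB and AT1G74470, the geranylgeranyl reductase. They were chosen by name, as the probe sets that the platform's gene annotation assigns to one of these symbols. Each gene had 1 probe set, which gives 4 of the 13350 genes that a probe set names alone and 4 of the 22810 probe sets on the array (the loci are AT5G63570 for GSA1, AT4G25080 for CHLM and AT4G27440 for PORB), and all 4 were among the 16765 that passed the filter on low values. None of the 4 probe sets is assigned to a further gene. Close relatives of GSA1 and PORB exist in the genome, and whether these probes also bind their transcripts was not tested.

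The series followed the start of callus formation, the growth of dividing, unorganised tissue from cut plant parts, in wild-type Arabidopsis thaliana of the Columbia-0 accession. Explants came from seedlings 10 days old that had grown on solid MS medium at 22 °C under 16 h of light and 8 h of dark. There were 10 groups of 3 arrays each: aerial organ explants after 0, 12, 24, 48 and 96 h on callus-inducing medium, and root explants after the same 5 times. All explants from 12 h onward had been cut and placed on the medium, and no explants kept off it are among the samples, so effects of the medium, of cutting, of age and of the hour of harvest cannot be told apart.

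Chlorophyll is built in plastids from glutamate, by way of 5-aminolevulinate and protoporphyrin, into which magnesium is inserted. GSA1, a glutamate-1-semialdehyde aminotransferase, makes 5-aminolevulinate, which also feeds the synthesis of haem. CHLM methylates magnesium protoporphyrin, PORB reduces protochlorophyllide in a step that needs light, and the geranylgeranyl reductase supplies the phytol tail that anchors chlorophyll in the thylakoid membrane and that tocopherols and phylloquinone share. In green tissue the pathway keeps pace with the assembly of photosystems and antenna proteins, because free chlorophyll precursors are harmful in light.

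Values are MAS5 signal, the brightness of a probe set on a linear scale after background correction, and they can be compared between arrays for 1 gene but not between genes. Changes are differences of log2(signal + 22) ± standard error with 3 arrays in each group, tested with limma and adjusted by the Benjamini-Hochberg method over all 16765 tested probe sets of a comparison. A change was called at an adjusted p below 0.05. The median signal of an array lay between 138.5 and 182.25, and arrays of 1 group correlated with r between 0.932 and 0.977 across probe sets, which do not vary independently. A listed gene counts as measured here if a probe set that names it alone in the annotation used passed the filter. Genes that count as not measured may still have probes on the array. RCA, which encodes Rubisco activase, was the only measured gene of 8 listed green-leaf markers. Its mean signal was 31816 in aerial explants and 173 in root explants at 0 h. Among 12 listed root markers 2 were measured, and the 0 h difference of neither was called under every alternative tried. EXPA7, a root hair expansin, averaged 16.0 in aerial and 91.6 in root explants at 0 h, but only 1 root array (172.2) was above the filter signal of 87.4, and without it the call was lost (adjusted p = 0.199). PYK10, a beta-glucosidase, averaged 18257 in aerial and 12905 in root explants at 0 h, and at 12 h 17785 in aerial and 21334 in root explants. Its 0 h call was lost with centred arrays (adjusted p = 0.134) and under other settings. It was also lost with the replicate number as a block (adjusted p = 0.136), but that fit compares the organs at the level of the first replicate, which is another difference.

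In aerial explants all 4 genes fell over the 96 h, and the calls came at different times. CHLM had lost most of its signal by 12 h. AT1G74470 was called lower at 12 h and again from 48 h, GSA1 from 48 h, and PORB only at 96 h. These times were read from the calls, with no test between genes. The GSA1 arrays at 12 h and 24 h already lay below those of 0 h, and PORB was also called at 48 h without its low 0 h array. At 96 h the mean signal was 11.9% of the 0 h mean for CHLM, 15.5% for PORB, 19.4% for AT1G74470 and 34.3% for GSA1. The 0 h mean of PORB includes its low array. In root explants, where CHLM and AT1G74470 were dim and PORB lay below the filter signal of 87.4 throughout, no gene was called lower at 96 h, although GSA1 was under 2 other scalings. Because whole explants were measured, fewer green cells and less RNA per cell cannot be told apart.

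**Figure D1:**
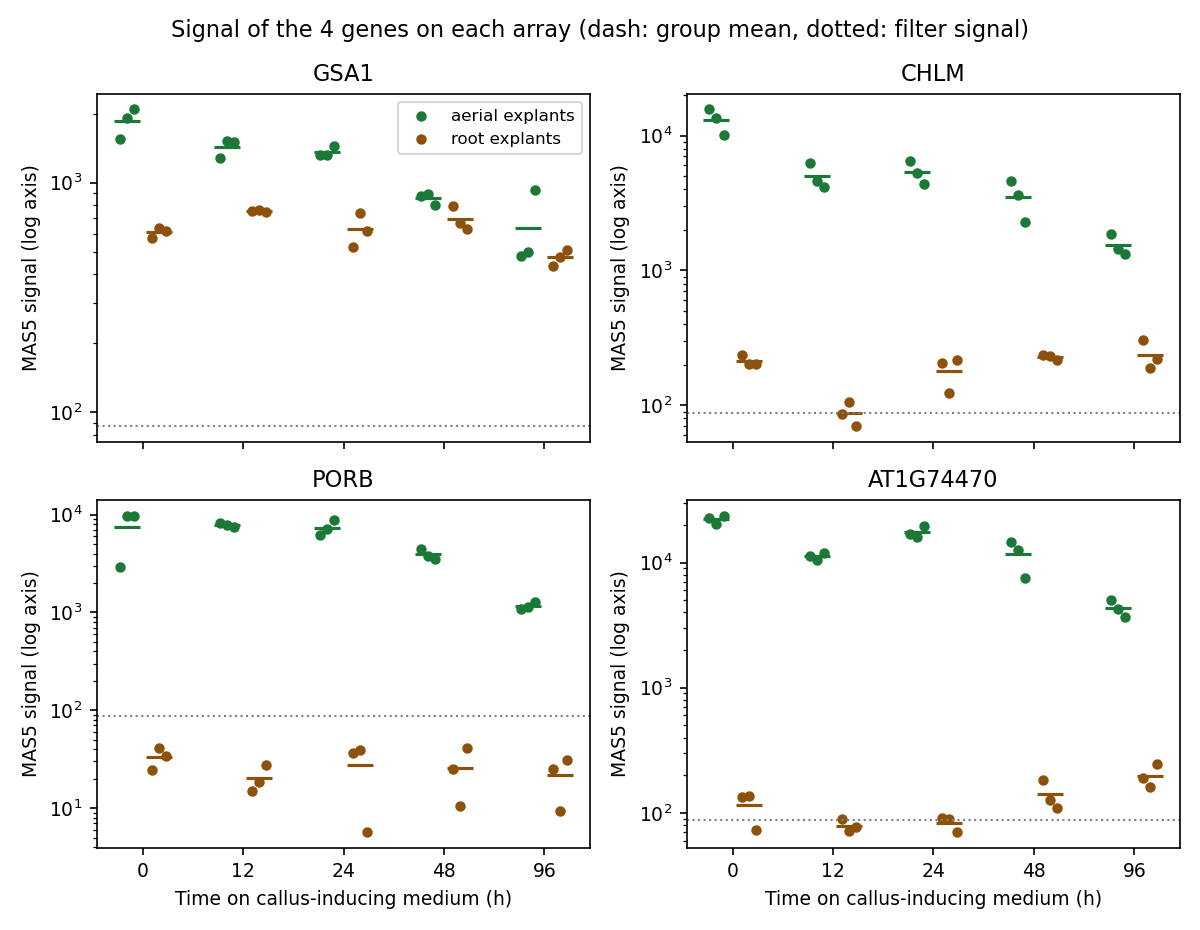
MAS5 signal (log axis) of GSA1, CHLM, PORB and AT1G74470 on each of the 30 arrays by hours on callus-inducing medium, with aerial explants in green and root explants in brown; points are arrays, dashes are group means and the dotted line is the filter signal of 87.4. The 3 aerial arrays of CHLM at 12 h lie below all 3 at 0 h, PORB has 1 low array at 0 h, and all 15 root arrays of PORB lie below the dotted line.

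GSA1 acts before CHLM and PORB in the order of the pathway. Signal on the aerial arrays was 1545.3, 1918 and 2086.1 for 0 h, 1277.6, 1518.2 and 1499.7 for 12 h and 1314, 1317.3 and 1441.6 for 24 h. At 48 h they gave 878.9, 897.1 and 798.1, and for 96 h 481.4, 497 and 925.6. Every array from 12 h onward was below every array at 0 h. One of the 96 h arrays, replicate 3, was as bright as the 48 h arrays, and the other two were lower. The difference from 0 h was -0.36 ± 0.19 at 12 h (limma adjusted p = 0.16) and -0.43 ± 0.19 at 24 h (adjusted p = 0.0918), neither of which was called. GSA1 was called lower at 48 h by -1.08 ± 0.19 (adjusted p = 4.08e-05) and at 96 h by -1.56 ± 0.19 (adjusted p = 5.36e-08), a 2.96-fold fall. Between 24 h and 48 h it fell by 0.65 on the log2 scale (adjusted p = 0.0405), a call that is lost when any single array of those groups is left out (adjusted p between 0.0644 and 0.16) and with only those 2 groups in the fit (adjusted p = 0.0989).

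CHLM was lower from 12 h onward and had the largest change of the 4 at 96 h in the main fit. Over the alternatives its 96 h change ran from -3.22 to -2.91 and that of PORB from -3.05 to -2.18, so these ranges overlapped. Signal on the aerial arrays was 15646.1, 13423.6 and 10110.5 for 0 h, 6232.1, 4568 and 4187 for 12 h and 6438.4, 5233.1 and 4399.8 for 24 h. The 48 h arrays read 4584.9, 3595.8 and 2302.1, and for 96 h 1871.5, 1450.4 and 1325.7. No array at a later time overlapped the 0 h arrays, while the 12 h and 24 h arrays overlapped each other. CHLM fell at 12 h by -1.38 ± 0.24 (adjusted p = 5.35e-05), at 24 h by -1.28 ± 0.24 (adjusted p = 2.06e-04), at 48 h by -1.93 ± 0.24 (adjusted p = 2.47e-07) and at 96 h by -3.05 ± 0.24 (adjusted p = 1.53e-11). These are falls of 2.60-fold at 12 h and 8.28-fold at 96 h. Between 24 h and 12 h the difference was 0.10, with a 95% interval from -0.38 to 0.59 and a sign that turned without 12 h replicate 3 or 24 h replicate 1, and CHLM fell again by 1.12 between 48 h and 96 h (adjusted p = 0.0028).

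PORB was called lower at 96 h only. Signal on the aerial arrays was 2925.6, 9717.3 and 9781.4 for 0 h, 8178.6, 7735.7 and 7437.7 for 12 h and 6138.2, 7047.1 and 8745.6 for 24 h. The values for 48 h were 4461.4, 3790.4 and 3482.3, and for 96 h 1082.7, 1130.3 and 1270.3. The first 0 h array stands far below the other 2 of its group, and below every aerial array at 12, 24 and 48 h. The difference from 0 h was 0.25 at 12 h, with a 95% interval from -0.43 to 0.93, and 0.15 at 24 h, with an interval from -0.53 to 0.83. Both turned sign without the low 0 h array, to -0.33 at 12 h and -0.43 at 24 h, and were not called there either, while without replicate 3 of 0 h they were 0.54 and 0.44. At 48 h it was -0.74 ± 0.33 (adjusted p = 0.0892). Without the low 0 h array the 48 h difference was -1.32 and was called (adjusted p = 9.78e-04), and without replicate 2 or replicate 3 of 0 h it was -0.46 or -0.45. A pseudocount at the 40th percentile also gave a call at 48 h (adjusted p = 0.0293). At 96 h PORB had fallen by -2.47 ± 0.33 (adjusted p = 4.59e-07), a 5.55-fold fall, with all 3 arrays below every other aerial array. Over the alternatives the 96 h difference ran from -3.05 to -2.18 and was called in each. Most of that fall came after 48 h, at -1.73 ± 0.33 between 48 h and 96 h (adjusted p = 0.00121), a call that is lost with a pseudocount of 1 (adjusted p = 0.0571).

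AT1G74470 fell by 12 h, was not called lower at 24 h, and was lower again at 48 h and 96 h. Signal on the aerial arrays was 22879.9, 20266.9 and 23770 for 0 h, 11324.9, 10411.5 and 11892.3 for 12 h and 16915.2, 15935.5 and 19566.9 for 24 h. Those of 48 h were 14716.5, 12661.3 and 7541.4, and for 96 h 5027.1, 4288.8 and 3693.9. The 3 arrays at 24 h lie above all 3 at 12 h and below all 3 at 0 h. The gene was lower at 12 h by -0.99 ± 0.22 (adjusted p = 0.00102), was not called at 24 h (-0.35 ± 0.22, adjusted p = 0.258), and was lower at 48 h by -0.99 ± 0.22 (adjusted p = 7.88e-04) and at 96 h by -2.36 ± 0.22 (adjusted p = 5.62e-10), a 5.15-fold fall. The difference between 24 h and 12 h, 0.64 ± 0.22, did not pass the test (adjusted p = 0.171), so the partial return is described and not called. The 48 h value depended on the scaling and on 1 array: it was -0.58 after quantile normalization and -0.70 without replicate 3 at 48 h, the lowest of its group, and was called in both cases. Between 48 h and 96 h AT1G74470 fell by 1.38 on the log2 scale (adjusted p = 1.7e-04).

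Counted together in aerial explants, 2 of the 4 genes were called lower than at 0 h at 12 h, 1 at 24 h, 3 at 48 h and 4 at 96 h, and none was called higher. Of all tested probe sets, 13.8% were called lower at 12 h, 12.4% at 24 h, 14% at 48 h and 18.6% at 96 h. The median change of the 4 genes was -0.67, -0.39, -1.03 and -2.42 at 12, 24, 48 and 96 h, where the median over all tested probe sets was -0.01, -0.02, 0.09 and 0.13. At 24 h the split of all calls moved with the scaling: 1913 probe sets were higher and 2077 lower, against 2317 higher and 1663 lower with each array centred on its median.

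From 12 h to 24 h none of the 4 genes was called by limma, where 0.889% of all tested probe sets were called higher and 0.406% lower. AT1G74470, at 0.64, was the 1 of the 4 with an unadjusted p below 0.05. From 24 h to 48 h 1 of 4 fell, with 1.41% of all tested probe sets called lower. From 48 h to 96 h 3 of 4 fell, with 4.01% of all called lower. The 4 genes had medians of 0.02, -0.65 and -1.25 over these steps, beside -0.01, 0.08 and 0.02 for all tested probe sets. GSA1 was the gene not called in the last step, at -0.49 (adjusted p = 0.109), and without the bright 96 h replicate 3 it was called at -0.78 (adjusted p = 0.00695).

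**Figure D2:**
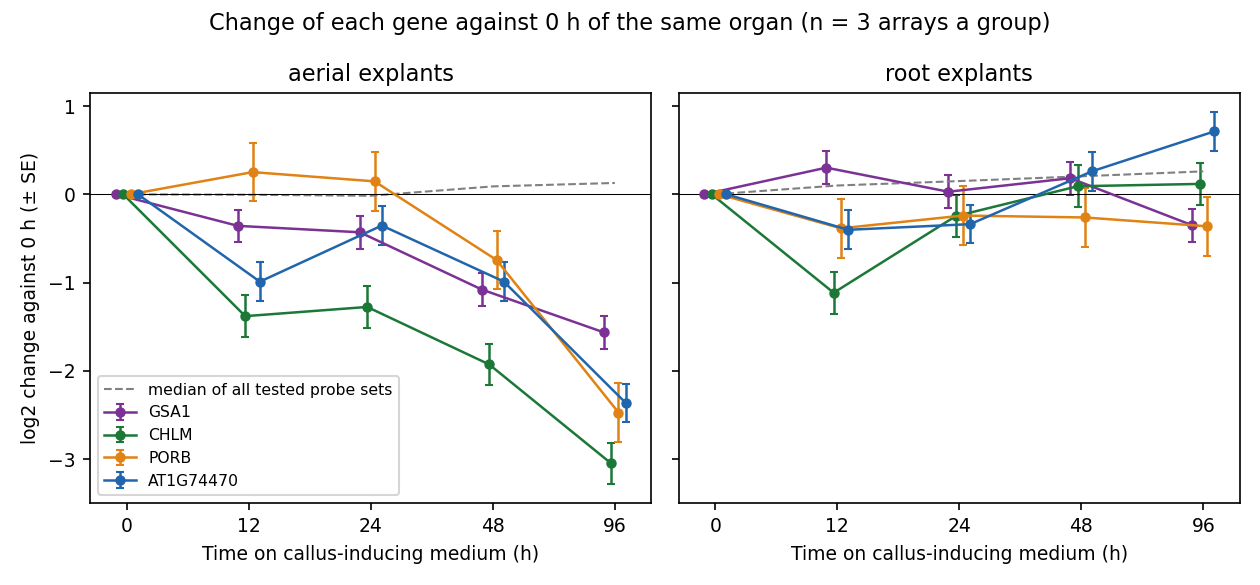
Change of each gene against 0 h of the same organ, in log2 units ± SE, by hours on callus-inducing medium (aerial explants left, root explants right; n = 3 arrays in each group; dashed line, median of all tested probe sets). In aerial explants CHLM is at -1.38 at 12 h while PORB is at 0.25 (-0.33 without its low 0 h array), and all 4 genes are below -1.5 at 96 h; in root explants CHLM is at -1.12 at 12 h and within 0.25 of 0 at the later times.

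The schedules can be compared within each array as the log2 ratio of 2 of the genes. Each ratio was set to 0 at the mean of the 0 h arrays, and taking a ratio removes any scaling shared by the array. CHLM over PORB was -1.63 ± 0.23 (SD, n = 3) at 12 h, below every 0 h array, and the ratio at 96 h, -0.58 ± 0.36, overlapped the 0 h arrays, which themselves ran from -0.93 to 1.44 because of the low PORB array. PORB over AT1G74470 was 1.24 ± 0.13 at 12 h, above every 0 h array, and -0.11 ± 0.34 at 96 h. CHLM over AT1G74470 was -0.92 ± 0.39 at 24 h, -0.94 ± 0.07 at 48 h and -0.69 ± 0.07 at 96 h, below the 0 h arrays at each of these times. At 48 h CHLM over PORB was -1.18 ± 0.34, narrowly below every 0 h array. The remaining ratios separated from 0 h at some times or at none. CHLM over PORB at 24 h, -1.42 ± 0.53, overlapped the 0 h arrays. PORB over GSA1 overlapped them at 12, 24, 48 and 96 h. CHLM over GSA1 overlapped them at 12, 24 and 48 h and lay below them at 96 h (-1.49 ± 0.72). GSA1 over AT1G74470 lay above them at 12 h (0.63 ± 0.18) and 96 h (0.80 ± 0.72) and overlapped them at 24 and 48 h. All these ratios are descriptions, with no test.

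Over the 5 aerial group means the genes followed each other with Pearson r between 0.82 and 0.96. CHLM and GSA1 were the closest pair at 0.96, and CHLM and PORB the least close at 0.82. Over the 5 root group means r ran from -0.75 to 0.73. Each r rests on 5 points that share arrays, and is a description only.

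In root explants GSA1 was the one gene of the 4 with a signal far above the filter in all 15 arrays. Signal on the root arrays was 576.4, 633 and 616 for 0 h, 755.2, 763.5 and 745.2 for 12 h and 525.7, 739 and 615.4 for 24 h. At 48 h they gave 794.1, 666.3 and 628.2, and for 96 h 432.4, 476.5 and 509.8. The 12 h arrays were above and the 96 h arrays below those of 0 h, and neither difference was called. At 12 h it was 0.30, with a 95% interval from -0.08 to 0.68, and at 96 h it was -0.35, with an interval from -0.73 to 0.03. The 96 h difference was called with each array centred on its median (-0.57, adjusted p = 0.0123) and after quantile normalization (adjusted p = 0.00936).

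CHLM was dim in root explants and dipped at 12 h. Signal on the root arrays was 234.4, 203.1 and 203.8 for 0 h, 86.5, 105.6 and 70.5 for 12 h and 204.6, 122.8 and 215.1 for 24 h. The 48 h arrays read 238.1, 232.6 and 215.8, and for 96 h 302.6, 188.4 and 221.6. The 3 arrays at 12 h were below every other root array, and 1 of them lay above the filter signal. CHLM fell at 12 h by -1.12 ± 0.24 (adjusted p = 4.05e-04), close to the -1.38 of aerial explants. It was 0.87 higher at 24 h than at 12 h (adjusted p = 0.0191), a call that is lost without 1 of 3 arrays (12 h replicate 3, 24 h replicate 1 or 24 h replicate 3, with adjusted p between 0.0836 and 0.109), with a pseudocount at the 40th percentile (adjusted p = 0.0716) or with only those 2 groups in the fit (adjusted p = 0.112), and it was not called against 0 h at 24, 48 or 96 h, where its differences were -0.25, 0.09 and 0.12. The 48 h and 96 h values turned sign with centred arrays (-0.04 and -0.10).

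AT1G74470 was dim in root explants and rose by 96 h. Signal on the root arrays was 134.6, 136.9 and 72.5 for 0 h, 89.2, 71.1 and 76.4 for 12 h and 91.1, 89.5 and 70.3 for 24 h. The values for 48 h were 183.9, 127.1 and 110, and for 96 h 188.4, 161.5 and 246. All 3 arrays at 96 h were above all 3 at 0 h. The rise at 96 h was 0.71 ± 0.22 (adjusted p = 0.00666), and it is lost with each array centred on its median (0.49, adjusted p = 0.0599), without root 0 h replicate 3 (adjusted p = 0.0831) and without root 96 h replicate 3 (adjusted p = 0.0529). Without root 0 h replicate 3, the lowest of its group, AT1G74470 had differences of -0.65 at 12 h and -0.58 at 24 h, and both were called (adjusted p = 0.0274 and 0.0381). PORB lay between 5.7 and 41.4 on the 15 root arrays, and no change of it can be read there.

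Against 0 h in root explants, 1 of the 4 genes was called at 12 h, none at 24 h, none at 48 h and 1 at 96 h, where 37.3%, 44.9%, 51.3% and 57.1% of all tested probe sets were called in either direction at those times. At 24 h and at 48 h 0 of the 4 had an unadjusted p below 0.05 in limma. The medians of the 4 genes, PORB included, were -0.39, -0.24, 0.14 and -0.12, beside 0.10, 0.15, 0.20 and 0.26 for all tested probe sets. After centring of the arrays the median over all tested probe sets moved by -0.22 at 96 h, and the split of all calls was then 4599 higher and 4319 lower, against 6066 higher and 3515 lower. Over the root steps, 1 of 4 was called from 12 h to 24 h (8.63% of all), none from 24 h to 48 h (3.83% of all) and none from 48 h to 96 h (7.12% of all). For those steps with no call, 1 and 2 of the 4 genes had an unadjusted p below 0.05.

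Set against root explants at the same time, the 4 genes had higher means in aerial explants, though not every difference was called. The fitted gap of CHLM, AT1G74470 and GSA1 was smaller at 96 h than at 0 h. At 96 h the difference, aerial minus root, was 2.61 ± 0.24 for CHLM, 4.31 ± 0.22 for AT1G74470 and 0.35 ± 0.19 for GSA1 on the log2 scale. At 0 h it had been 5.77 for CHLM, 7.39 for AT1G74470 and 1.56 for GSA1, with limma adjusted p of 2.23e-18, 3.94e-21 and 1.98e-08. For CHLM that is 6.09-fold at 96 h, against 54.7-fold at 0 h. Because every PORB root array lay below the filter signal, its gap is a bound taken against that signal: aerial explants were at least 85.5-fold brighter at 0 h, at least 89.1-fold at 12 h, at least 83.6-fold at 24 h, at least 44.8-fold at 48 h and at least 13.3-fold at 96 h. The fitted differences of PORB were called at all 5 times. Whether its gap narrowed cannot be read from these bounds, which follow the aerial signal alone.

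All 4 genes were called higher in aerial explants at 0, 12 and 24 h, where 30.2%, 25.8% and 25.4% of all tested probe sets were called higher, and 3 of 4 at 48 h (24.2% of all) and at 96 h (21.2% of all). GSA1 was the gene not called. Its difference was 0.30 at 48 h, with a 95% interval from -0.08 to 0.68, and 0.35 at 96 h, with an interval from -0.03 to 0.73. The 96 h value was called after quantile normalization (0.47, adjusted p = 0.0321) and without aerial 96 h replicate 1 (0.51, adjusted p = 0.0396), and it was 0.050 without the bright aerial 96 h replicate 3. At 96 h aerial explants averaged 635 ± 252 and root explants 473 ± 38.8 (SD, n = 3 each). The median gap of the 4 genes, with the fitted gap of PORB included, was 3.46 at 96 h and 6.34 at 0 h. All tested probe sets had medians of -0.18 and -0.05 at these times. Because the PORB gap is only a bound, the smaller median cannot be read as a narrowing of all 4 gaps.

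**Figure D3:**
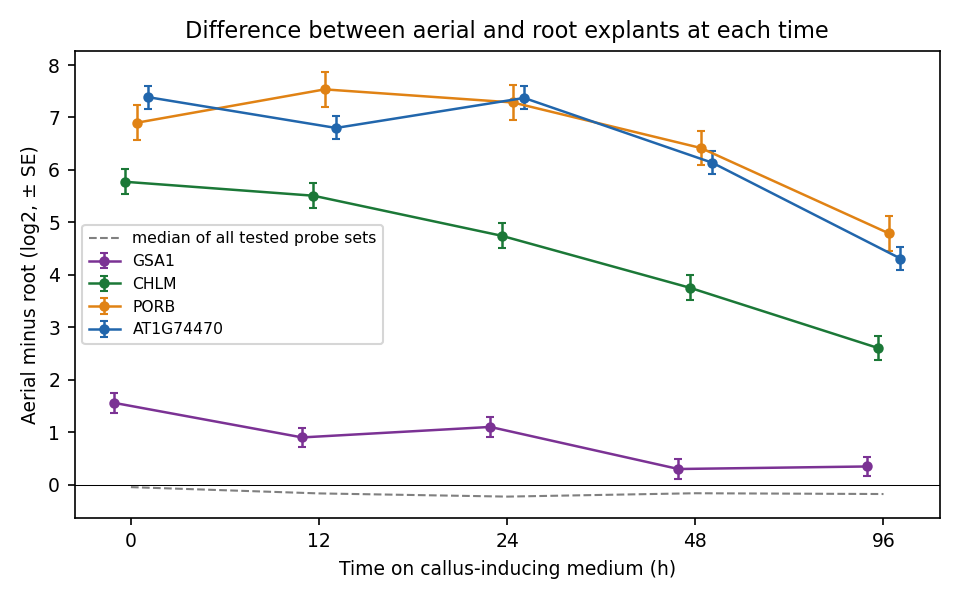
Difference between aerial and root explants at each time for GSA1, CHLM, PORB and AT1G74470, as log2 aerial minus root ± SE (n = 3 arrays in each group; dashed line, median of all tested probe sets). The fitted gap is 2.61 at 96 h and 5.77 at 0 h for CHLM, and 0.35 at 96 h and 1.56 at 0 h for GSA1; PORB is below the filter signal in root explants, so its fitted gap depends on the pseudocount.

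Whether the 2 organs changed differently was tested directly, as the aerial change from 0 h minus the root change from 0 h. At 12 h none of the 4 genes was called lower by limma, where 17.5% of all tested probe sets were, and 1 of the 4 had an unadjusted p below 0.05. For CHLM, which fell in both organs at 12 h, the difference was -0.27, with a 95% interval from -0.95 to 0.42. At 24 h 1 of 4 was called (22.8% of all), at 48 h 3 of 4 (24.6% of all) and at 96 h 4 of 4 (29% of all). The 96 h count includes PORB, whose root change could not be measured and whose call is lost with a pseudocount of 1 (adjusted p = 0.052); the 3 genes called at 48 h, CHLM, AT1G74470 and GSA1, are the other 3. The medians of the 4 genes, PORB included, were -0.43, -0.24, -1.26 and -2.59 at these times, beside -0.14, -0.21, -0.17 and -0.19 for all tested probe sets. These comparisons share the 0 h arrays with those above. The split of all calls in this test moved with the scaling: at 12 h 2263 were higher and 2930 lower, against 2669 and 2265 with centred arrays, and at 24 h 2668 were higher and 3818 lower, against 3203 and 2771.

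The other genes of the pathway were read from 4 lists that hold 40 genes with the 4 described here, of which 14 are named alone by a probe set and 11 were tested. In aerial explants 7 of the 11 were called lower at 12 h, 4 at 24 h, 9 at 48 h and 10 at 96 h, and none higher, where 13.8%, 12.4%, 14% and 18.6% of all tested probe sets were called lower. Without the 4 genes the counts were 5, 3, 6 and 6 of 7. The median of these 7 was -1.05, -0.87, -1.85 and -2.59 at the 4 times. HEMA3, HEMB2 and HEMF2 did not pass the filter, and most other listed genes, among them HEMA1, CHLH, GUN4, CRD1, PORA, PORC and CAO, have no probe set that names them alone in the annotation used here.

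Of the genes that lead from 5-aminolevulinate to protoporphyrin, all 3 measured fell in aerial explants at 96 h. HEMB1, a 5-aminolevulinate dehydratase, averaged 1333 at 96 h and 4026 at 0 h, a difference of -1.60 ± 0.17 (adjusted p = 5.63e-09), and like GSA1 it was called from 48 h and not at 12 or 24 h. HEME1 and HEME2, both uroporphyrinogen decarboxylases, were lower already at 12 h, by -1.31 and -1.16, and at 96 h by -2.59 and -2.71. CHLI2, a subunit of the magnesium chelatase that acts just before CHLM, averaged 131 at 96 h and 1504 at 0 h (-3.27 ± 0.37, adjusted p = 3.1e-08). Its call at 12 h (-1.05, adjusted p = 0.0362) is lost under 4 of the other settings and without any of 4 single arrays.

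LIL3:1 and LIL3:2 encode light-harvesting-like proteins that bind the geranylgeranyl reductase. LIL3:1 averaged 385 at 96 h and 4020 at 0 h in aerial explants (-3.32 ± 0.34, adjusted p = 2.87e-09), and LIL3:2 averaged 2045 and 7560 (-1.84 ± 0.26, adjusted p = 1.37e-06). Both were called lower at 12 h and at 48 h and not at 24 h, where LIL3:1 was at -0.87 (adjusted p = 0.0583) and LIL3:2 at -0.45 (adjusted p = 0.229). These calls were not firm: LIL3:1 was called at 24 h with only those 2 groups in the fit (adjusted p = 0.0382) and with a pseudocount at the 40th percentile (adjusted p = 0.00461), and LIL3:2 was not called at 48 h without aerial 48 h replicate 3 (adjusted p = 0.0679). The 12 h calls of both, -1.07 and -0.88, are lost without aerial 0 h replicate 1 (adjusted p = 0.0765 and 0.0705) and without some other single arrays, and that of LIL3:1 with a pseudocount of 1 (adjusted p = 0.208).

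HEMA2, a glutamyl-tRNA reductase that acts before GSA1, changed in the other organ. Signal on the root arrays was 1831, 1747.6 and 1896.3 for 0 h, 535.9, 1072.4 and 532.6 for 12 h and 321.4, 384.8 and 438 for 24 h. Those of 48 h were 237.2, 362.3 and 339.9, and for 96 h 246.3, 220.8 and 334.6. All 3 root arrays at 0 h were above every later one, and in aerial explants the 15 values ran from 210.8 to 407.3. In root explants HEMA2 fell by -1.41 at 12 h (adjusted p = 1.75e-05) and by -2.69 ± 0.23 at 96 h (adjusted p = 8.37e-11), a 6.47-fold fall. In aerial explants its difference at 96 h was -0.22 ± 0.23 (adjusted p = 0.454), and it was the only one of the 11 that was not called there. At 0 h it was lower in aerial explants, which averaged 279 against 1825 in root explants (-2.62, adjusted p = 4.46e-11), and the aerial change minus the root change at 96 h was 2.47 ± 0.32 (adjusted p = 3.2e-07).

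In root explants at 96 h, 3 of the 11 genes were called higher, 1 lower and 7 not called, where 36.2% of all tested probe sets were called higher and 21% lower. Those higher were HEME2 (0.72, adjusted p = 0.00745), CHLI2 (1.06, adjusted p = 0.0175) and AT1G74470, and the one lower was HEMA2. The calls of HEME2 and CHLI2 are lost with each array centred on its median (adjusted p = 0.0699 and 0.0748), and that of HEME2 also after quantile normalization (adjusted p = 0.0633) and without root 0 h replicate 2 (adjusted p = 0.0536). CHLI2 averaged 73.6 at 96 h and 26.7 at 0 h and lay below the filter signal on every root array, as did LIL3:1, so that no change of either can be read in root explants. The call of CHLI2 is lost without root 0 h replicate 1 (0.68, adjusted p = 0.152), without root 96 h replicate 3 (adjusted p = 0.0615) and with a pseudocount at the 40th percentile (0.51, adjusted p = 0.0619).

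**Figure D4:**
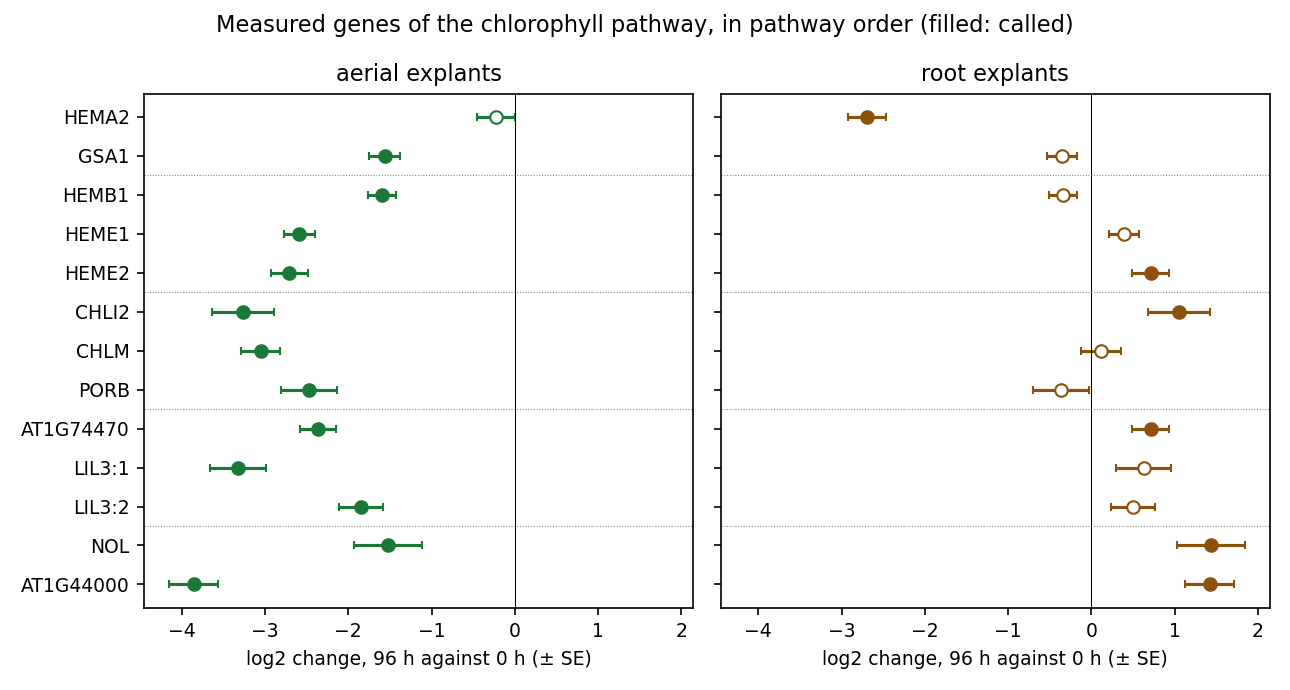
Change at 96 h against 0 h of the same organ for the 11 tested genes of the chlorophyll pathway in pathway order and 2 genes of chlorophyll turnover, as log2 ± SE (aerial explants left, root explants right; filled points were called at an adjusted p below 0.05, n = 3 arrays in each group). In aerial explants each gene lies left of 0, and each is filled except HEMA2, which is open. In root explants HEMA2 lies at -2.69, and NOL and AT1G44000 at 1.44 and 1.42. PORB, CHLI2 and LIL3:1 are below the filter signal on every root array.

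Of 11 listed genes that take chlorophyll apart or turn chlorophyll b into a, 2 were measured. NOL, a subunit of chlorophyll b reductase, averaged 223 at 96 h and 690 at 0 h in aerial explants (-1.53 ± 0.41, adjusted p = 0.00304), and in root explants 144 at 96 h and 41.9 at 0 h (1.44 ± 0.41, adjusted p = 0.00375). All 3 root arrays at 0 h were below the filter signal, against which root explants at 96 h were at least 1.65-fold brighter. AT1G44000, a relative of the STAY-GREEN magnesium-dechelating proteins, fell early in aerial explants, by -3.65 ± 0.30 at 12 h (adjusted p = 3.58e-10) and by -3.86 ± 0.30 at 96 h. In root explants it was higher at 96 h by 1.42 ± 0.30 (adjusted p = 1.66e-04). Its root arrays at 0 h lay between 50.7 and 110.3, and 1 of them was above the filter signal. The aerial change minus the root change at 96 h was -2.96 for NOL (adjusted p = 9.62e-05) and -5.28 for AT1G44000 (adjusted p = 3.64e-11). Both are read against dim root arrays of 0 h. For both genes the organs moved in opposite directions.

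SIRB, the ferrochelatase of sirohaem, was the only measured gene of 9 on the haem, bilin and sirohaem branch. It averaged 553 at 96 h and 819 at 0 h in aerial explants (-0.55 ± 0.18, adjusted p = 0.013), a call that is lost without aerial 0 h replicate 2 (adjusted p = 0.0833) or aerial 96 h replicate 2 (adjusted p = 0.0822) and with only those 2 groups in the fit (adjusted p = 0.0661). Among 10 listed regulators of greening, only HYH, a bZIP transcription factor of light signalling related to HY5, was measured. HYH averaged 34.3 at 12 h, 29.2 at 96 h and 597 at 0 h in aerial explants. All arrays at 12 h and 96 h were below the filter signal, so that the fall is a bound, at least 6.83-fold lower at both times, and it was called at 12 h (adjusted p = 4.15e-06). GLK1, GLK2 and HY5 have no probe set that names them alone in the annotation used and were not analysed here.

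Genes that use or accompany chlorophyll fell beside the 4 enzymes. Of 8 measured photosystem and antenna genes, 4, 5, 8 and 8 were called lower in aerial explants at 12, 24, 48 and 96 h, beside the 13.8%, 12.4%, 14% and 18.6% of all tested probe sets given above. Their median changes were -0.90, -0.74, -1.57 and -2.90. The median of the 4 enzymes at 96 h was -2.42, and no test of the difference was made. Of the Calvin cycle, RCA, SBPASE and PRK were measured, and all 3 were called lower at each time, with a median of -4.36 at 96 h. In root explants at 96 h none of the 8 photosystem and antenna genes was called by limma, where 57.1% of all tested probe sets were, and 1 had an unadjusted p below 0.05. Their median was -0.24, and only PSB27 and LHCB4.1 had root means above the filter signal at both times.

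Some other tissue markers were lower in the same explants, and others were not called. Of the leaf epidermis markers 3 were measured, SPCH, FMA and TRY. Their summed signal is a description only, because signals of different genes are not on a common scale. On the aerial arrays it lay between 382.8 and 451.8 at 0 h and between 130.9 and 145.8 at 12 h. Later it lay between 200.2 and 316.2 at 24 h, between 77.0 and 232.4 at 48 h and between 89.9 and 150.5 at 96 h. These 3 markers did not move alike. SPCH and TRY averaged 132 and 147 at 0 h. At 12 h both were below the filter signal on all 3 arrays, so that their falls are bounds, at least 1.51-fold and 1.68-fold. FMA had 77.0% of its 0 h mean at 12 h, which was not called (-0.27, adjusted p = 0.672). Of the root markers in aerial explants, EXPA7 lay between 34.5 and 97 at 96 h and between 9.1 and 24.1 at 0 h, and PYK10 between 16313.6 and 18463.8 at 96 h and between 13882 and 21561 at 0 h, and neither was called. RCA lay between 28469.5 and 37757.6 at 0 h, between 11388.5 and 14379.2 at 12 h, between 15779.9 and 18558.3 at 24 h and between 3499.7 and 5298.3 at 96 h, so that it too was lower at 12 h than at 24 h. The part of cell composition in the falls of the 4 genes was not tested.

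The labels used here give no hour of harvest, and the 1 measured gene of 9 listed for the circadian clock differed between groups. GI averaged 581 at 12 h and 47.3 at 0 h in aerial explants, where all 0 h arrays were below the filter signal (at least 6.65-fold higher at 12 h, adjusted p = 4.17e-06), and in root explants 371 at 12 h and 1994 at 0 h (-2.42, adjusted p = 1.26e-04). At 0 h GI was thus lower in aerial than in root explants, by at least 22.8-fold (adjusted p = 9.83e-11). Whether time of day had a part in the 12 h values of CHLM and AT1G74470, or in the return of AT1G74470 at 24 h, was not tested.

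The probe sets whose profile was most like each gene were found by Pearson r over the 10 group means, which share arrays and are dominated by the gap between the organs. Nearest to CHLM were CcdA (0.995), a thylakoid protein of cytochrome assembly, petB (0.995), a plastid-encoded cytochrome b6 gene, and AT1G15180 (0.994). Nearest to PORB were NGA1 (0.998), a B3-domain transcription factor, LHCB4.1 (0.997), an antenna protein of photosystem II, and PSBW (0.997), a photosystem II subunit. Nearest to GSA1 were AT3G61180, AT4G28025 and AT4G39970, at 0.970, 0.969 and 0.969. Nearest to AT1G74470 were LIL3:2 (0.998), its binding partner described above, AT2G04570 (0.998) and AT2G03550 (0.997). Nearest to the mean of the 4 standardised profiles were AT1G11850 (0.998), AT5G51010 (0.997) and AT5G52970 (0.997).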

How the data were processed

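RNA of wild-type explants was measured on 30 Affymetrix ATH1 arrays of 1 colour, 3 for each organ and time, which the labels call biological replicates. The p-values measure the spread between these arrays only. Each array's group was read from its title. The deposited values are MAS5 signal, a linear intensity per probe set, made with MAS5 per the submitters' processing notes (no version given there). With 2% of values trimmed from either end, every array had a mean of 500, and the deposited intensity values had been scaled to a common target. Scaling to a common mean makes every change relative to the array's total.

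Signals were analysed as log2(signal + 22), 22 being the 20th percentile of all values, which understates the change of dim genes. The 64 control probe sets were left out. Testing required a signal above 87.4, the 40th percentile, on 3 or more arrays. The 10 group means were fitted with limma 3.58.1 in R 4.3.3 (lmFit, eBayes with a trend, two-sided), with 23 comparisons, each adjusted by Benjamini-Hochberg over 16765 probe sets. The fit was tested on simulated data. Gene names came from the platform annotation of 2016, which names 1 gene for 13513 probe sets and several for 503, and 13436 matched a locus of the reference gene table. The number of arrays limits the precision.

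The members and lists were chosen with earlier results of these data known. Named by rule are the 4 members, all measured genes of the 5 lists for synthesis and turnover, HYH, and the 3 nearest profiles of each member. SIRB, RCA, SBPASE, PRK, GI, SPCH, FMA, TRY, PYK10 and EXPA7 fall outside that rule; they are the few measured genes of other lists and were named after their values were seen. No block was used, because 27 of 60 same-numbered pairs correlated above 0.1, which did not meet the criterion set for pairing. The mean r of deviations from the group means was 0.105 for same-numbered arrays and -0.052 for others. The main fit may therefore leave out a pairing of the arrays. Alternatives were 2 other pseudocounts, no filter, 2 scalings, a replicate block, only the groups compared, and each array left out. In comparisons of aerial with root explants at the same time, the block read both organs at the level of the first replicate. Its values there are thus of another difference.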

Additional observations from a re-analysis of the deposited data

Results flagged for a closer look

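The changes from 0 h differed between aerial and root explants in 8 tests, each of the aerial change minus the root change in limma. For CHLM the difference was -1.03 at 24 h (adjusted p = 0.0159), -2.02 at 48 h and -3.17 at 96 h, and the root changes at those times were -0.25, 0.09 and 0.12. The 24 h value is lost with each array centred on its median (-0.85, adjusted p = 0.0581) and without aerial 0 h replicate 1 (adjusted p = 0.0504). For AT1G74470 the 48 h difference was -1.25 (adjusted p = 0.00163). Its 96 h difference was -3.08, and its root change at 96 h was a rise of 0.71.

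For GSA1 the 48 h difference was -1.26 (adjusted p = 2.75e-04). Its 96 h difference was -1.21 (adjusted p = 3.03e-04). For PORB it was -2.11 at 96 h (adjusted p = 4.19e-04), and with a pseudocount of 1 it was -1.78 (adjusted p = 0.052). The PORB root values lie below the filter signal, so its root change could not be measured. Without the low aerial 0 h array, the PORB difference at 48 h was -1.06 (adjusted p = 0.0289).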

How the results depend on the processing

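Of 92 changes of the 4 genes, 43 were called. Of 607 alternative values of these, 19 lost the call, spread over 6 changes, and 0 changed sign. Of 685 alternative values of changes not called, 22 gained a call and 39 turned sign. The counts of called genes out of 4 moved in these comparisons. In aerial explants the 48 h count (3 reported) was 4 with a pseudocount at the 40th percentile and 3 to 4 without single arrays, and that from 48 h to 96 h (3 reported) was 2 with a pseudocount of 1 and 3 to 4 without single arrays. The aerial against root count at 96 h (3 reported) was 4 after quantile normalization and 3 to 4 without single arrays. From 24 h to 48 h in aerial explants (1 reported) the count was 3 with a pseudocount at the 40th percentile, 2 with centred arrays, 2 with the replicate block, 0 with only the groups compared, and 0 to 2 with single arrays left out. In root explants, leaving out single arrays gave 1 to 2 at 12 h, 0 to 1 at 24 h, 0 to 1 at 96 h and 0 to 1 from 12 h to 24 h. The root count at 96 h was 2 after quantile normalization, that from 12 h to 24 h was 0 with a pseudocount at the 40th percentile and 0 with only the groups compared, and that from 48 h to 96 h was 1 with centred arrays and 1 after quantile normalization. For the aerial change minus the root change, the 12 h count was 2 with a pseudocount at the 40th percentile, 1 with the replicate block and 0 to 1 without single arrays, the 24 h count was 0 with centred arrays and 0 to 1 without single arrays, the 48 h count (3 reported) was 3 to 4 without single arrays, and the 96 h count (4 reported) was 3 with a pseudocount of 1. The cause of these moves was not tested, except that fewer arrays enter when one is left out. In 26 of 30 arrays the deviations were most like those of the same replicate number, a hint from the data and not from the design, and the block changed no other count. Over all tested probe sets, fitting only the groups compared gave 3009 calls in place of 4577 at 12 h in aerial explants, 2549 in place of 3990 at 24 h, 254 in place of 729 from 24 h to 48 h, and in root explants 583 in place of 1447 from 12 h to 24 h and 1871 in place of 1194 from 48 h to 96 h. A pseudocount of 1 gave 739 in place of 1302 from 48 h to 96 h in aerial explants. PORB, CHLI2 and LIL3:1 in root explants, and NOL, AT1G44000, HYH and GI in some groups, lie near background, where fold sizes depend on the pseudocount.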
